A study of Mus musculus with 14 samples.

Results

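The pericentral Wnt target genes mark the hepatocytes around the central vein and respond to Wnt signalling. They were followed through liver RNA-seq of mice fed diets that differ in their content of advanced glycation end-products (AGEs). The 10 genes were chosen by their known role, with earlier results of these data known. They are Glul, Slc1a2, Oat, Lhpp, Cyp2e1 and Cyp1a2, which encode metabolic proteins, Tbx3, which encodes a transcription factor, and Axin2, Lgr5 and Rnf43, which encode parts of the Wnt feedback loop. They were 10 of 55427 genes in the table. Of these, 9 were among the 12095 genes that passed the filter on low values and were tested, and Lgr5 did not pass it.

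In the liver lobule, endothelial cells of the central vein secrete Wnt2, Wnt9b and the Wnt enhancer R-spondin 3. These ligands stabilise β-catenin in the hepatocytes next to the vein, where β-catenin acts with TCF and LEF factors on the pericentral programme. That programme covers glutamine synthesis, ornithine breakdown and much of the drug metabolism by cytochromes P450. Urea synthesis and gluconeogenesis lie on the opposite, periportal side.

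The 14 libraries were made from whole livers of male mice on a C57B6 background, aged 8 to 10 weeks and fed for 14 weeks. In 3 libraries the mice were labelled RageHepKO, carrying the RAGE flox alleles with Alb cre, a Cre driven by the albumin promoter and so active in hepatocytes, and were fed the high-AGE diet (HiAD). The other 11 libraries came from mice labelled RAGE flox. Of those, 2 were on the HiAD with daily injections of pyridoxamine (PM), which inhibits the formation of AGEs. A further 3 were on the HiAD without PM, 3 on the fast-food diet (FFD) and 3 on chow. The paper gives the HiAD group without PM as treated with vehicle, which the sample labels do not mention. Whether the FFD, chow and RageHepKO mice were injected is not clear from it. The HiAD is the FFD after heating, which raises its AGE content, and both came with high-fructose water. The comparison of HiAD with FFD therefore concerns the heating of the diet and, if the FFD mice were not injected, the injections as well. Those of PM and RageHepKO with HiAD concern AGE formation and the AGE receptor RAGE in hepatocytes, with the same limit on injections for RageHepKO. In whole tissue, fewer cells of a type and less RNA per cell cannot be told apart. No source ties libraries of different groups to each other, so that p-values measure the spread between these libraries.

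All levels are given in scaled FPKM, fragments relative to exon length and library size, after scaling between libraries. Read depth is unknown for such values. Ager, the gene that encodes RAGE, was between 0.197 and 1.89 scaled FPKM in the libraries labelled RageHepKO, between 2.48 and 2.74 with PM, between 0.0807 and 0.183 on the HiAD, between 2.46 and 2.77 on the FFD and between 0.797 and 2.14 on chow. Set against the HiAD libraries, Ager goes against the label RageHepKO, although the deleted exons are not given and reads outside them would still count. The HiAD libraries were also below every other library from RAGE flox mice, while RA20 and RA21 lay within the range of the chow libraries. Every direction in the 4 comparisons with the HiAD libraries therefore rests on the labels. Mitochondrial transcripts made up 24.3 to 53.1% of summed FPKM in those labelled RageHepKO and 6.06 to 24.1% in the other 11, with the highest share in RA19. The names of the HiAD libraries begin with B and those of the others with R or RA, and whether the letter marks a batch is not given. The letter B coincides with the group of RAGE flox mice on the HiAD without PM. In all 4 comparisons with that group, those with PM and RageHepKO included, letter and group therefore cannot be told apart.

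Because the programme runs through TCF and LEF factors, the forms CTTTGAA as well as CTTTGAT, together with CTTTGTA as well as CTTTGTT, were looked for on both strands of the 250 bases before each RefSeq start (GRCm38.p6). The same core read on the other strand, CAAAG, also occurs in sites of the hepatocyte factor HNF4A. Windows were found for 7 of the 10 genes, and 3 of these genes held a match, Slc1a2, Cyp2e1 and Cyp1a2. Of all 32851 windows, 14.8% held a match, and the single forms were found in 4.46% (CTTTGAA), 3.21% (CTTTGAT), 3.20% (CTTTGTA) and 5.03% (CTTTGTT). Lhpp, Tbx3 and Lgr5 had no window. The 3 matches are shown with their flanking bases in the sense of the gene, the match in capitals, because Slc1a2 and Cyp1a2 also passed the test in at least 1 comparison. A match describes the letters and is not a binding site.
Slc1a2, chr2:102706221-102706247, plus strand: gaagagggacATCAAAGgccccaaatg
Cyp2e1, chr7:140763674-140763700, plus strand: aagggtcagcCTTTGAAatgatagcca
Cyp1a2, chr9:57683883-57683905, minus strand: tattctTTCAAAGacatatacct

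Relative to the start, the first base of the match was at -207 for Slc1a2, at -135 for Cyp2e1 and at -244 for Cyp1a2. The Slc1a2 window belongs to a start inside the gene. The windows of Glul, Oat, Axin2 and Rnf43 held none of the 4 forms.

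Of the metabolic members, Glul, Slc1a2, Oat, Lhpp and Cyp1a2 had their lowest group mean on the HiAD and Cyp2e1 with PM. Tbx3 and Rnf43 had it on chow, and Axin2 and Lgr5 in the libraries labelled RageHepKO. The share of all tested genes with their lowest mean on the HiAD was not counted. Slc1a2 and Lhpp fell in HiAD livers against both FFD and chow livers, and Oat fell against chow. Cyp1a2 rose with PM and in the libraries labelled RageHepKO. Lhpp, Oat and Slc1a2 rose in the libraries labelled RageHepKO and did not pass the test with PM. Tbx3, Axin2 and Rnf43 passed the test in none of the 5 comparisons.

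**Figure D1:**
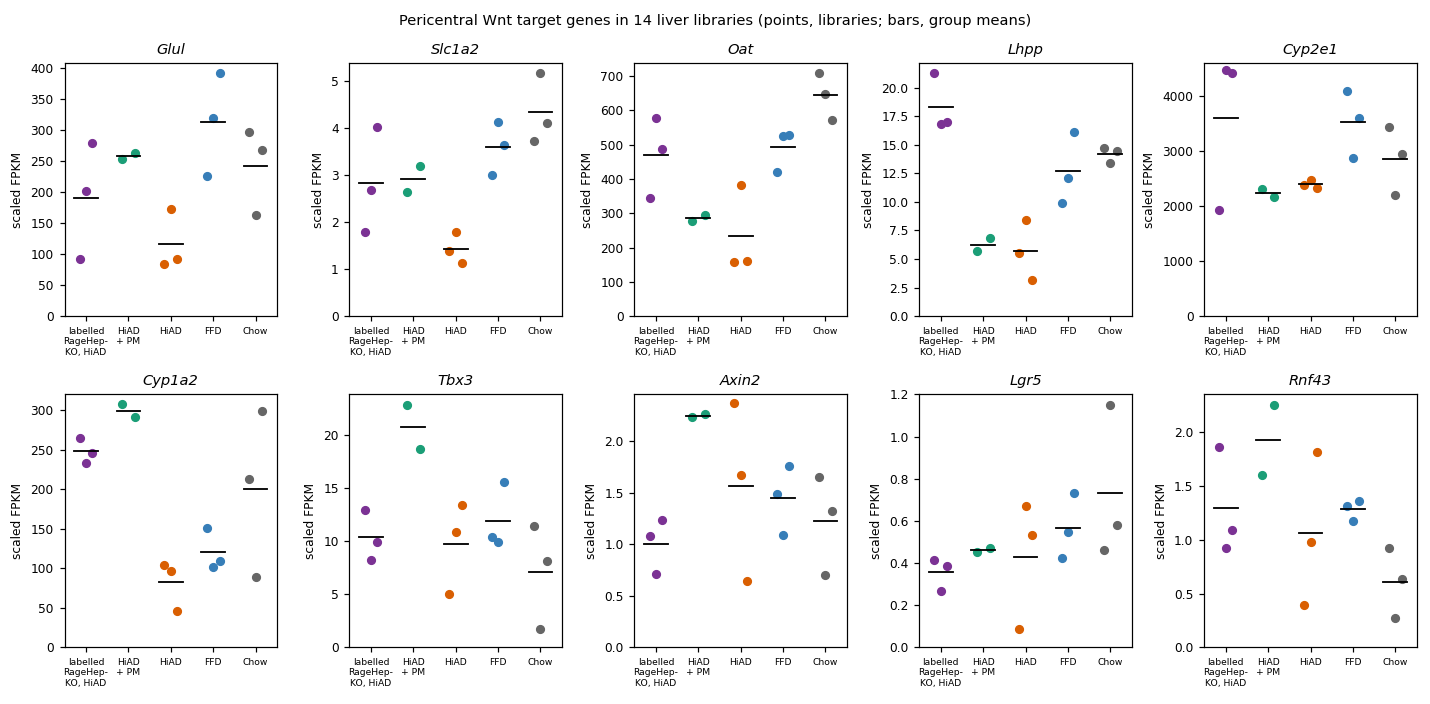
Level of each of the 10 genes in scaled FPKM (linear axis from 0) in the 14 liver libraries, by group, with points for libraries and bars for group means. The HiAD libraries have the lowest mean for Glul, Slc1a2, Oat, Lhpp and Cyp1a2, with Slc1a2 between 1.13 and 1.79 on the HiAD and between 3.001 and 4.14 on the FFD.

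In HiAD against FFD, 2 of the 9 tested members fell and none rose, by limma with Benjamini-Hochberg adjustment over all tested genes at 0.05. Over all tested genes 3.11% passed in either direction and 1.45% fell. The HiAD libraries were all below the FFD libraries for 5 members, Glul, Slc1a2, Oat, Lhpp and Cyp2e1, and for no member above them. Such a separation downwards was found for 14.0% of all tested genes. The median log2 fold change was -0.60 over the 9 members and 0.02 over all tested genes. Fold changes are on the scale of log2(scaled FPKM + 1), which understates the change of genes at low levels such as Slc1a2, Axin2 and Rnf43.

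In HiAD against chow, 3 of 9 members fell and none rose, with 4.68% of all tested genes passing in either direction, 2.84% rising and 1.84% falling. The HiAD libraries lay below all chow libraries for Slc1a2, Oat and Lhpp, a separation downwards found for 12.4% of all tested genes, against 13.2% upwards. The median was -1.09 over the members and -0.02 over all tested genes. All 4 comparisons that involve the HiAD share its libraries. In a fit of the compared groups alone 1 member passed against chow, and with the replicate number as a block none did by limma.

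In FFD against chow no member passed in limma, and none had an unadjusted p under 0.05. Over all tested genes 0.0661% passed, 0.00827% upwards and 0.0579% downwards. Rnf43 was higher and Oat lower in every FFD library than in every chow library, separations that 8.15% and 9.77% of all tested genes showed upwards and downwards. The median of the members was 0.15, against -0.02 over all tested genes.

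With PM, 1 of 9 members rose against HiAD and none fell, while 6.46% of all tested genes passed, 3.32% rising and 3.14% falling. Both PM libraries were above all HiAD libraries for Glul, Slc1a2, Cyp1a2 and Tbx3 and below them for Cyp2e1. With 2 libraries against 3, 26.0% of all tested genes were separated upwards in this way and 24.0% downwards. The median was 0.56 over the members and 0.01 over all tested genes.

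In the libraries labelled RageHepKO against HiAD, 4 of 9 members rose and none fell. Many genes differed here, with 33.4% of all tested genes passing, 15.7% rising and 17.7% falling. The libraries were separated upwards for Slc1a2, Lhpp and Cyp1a2, as for 20.3% of all tested genes. The median was 0.62 over the members and -0.0007 over all tested genes. Without scaling of the deposited FPKM, the median of all genes in this comparison moved to -0.26 and the calls were 952 higher and 3371 lower, against 1898 higher and 2144 lower with it. With the sums outside mitochondrial genes set equal they were 931 higher and 3733 lower, and the median was -0.30. In both of these settings Lhpp and Cyp1a2 passed and Oat and Slc1a2 did not.

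**Figure D2:**
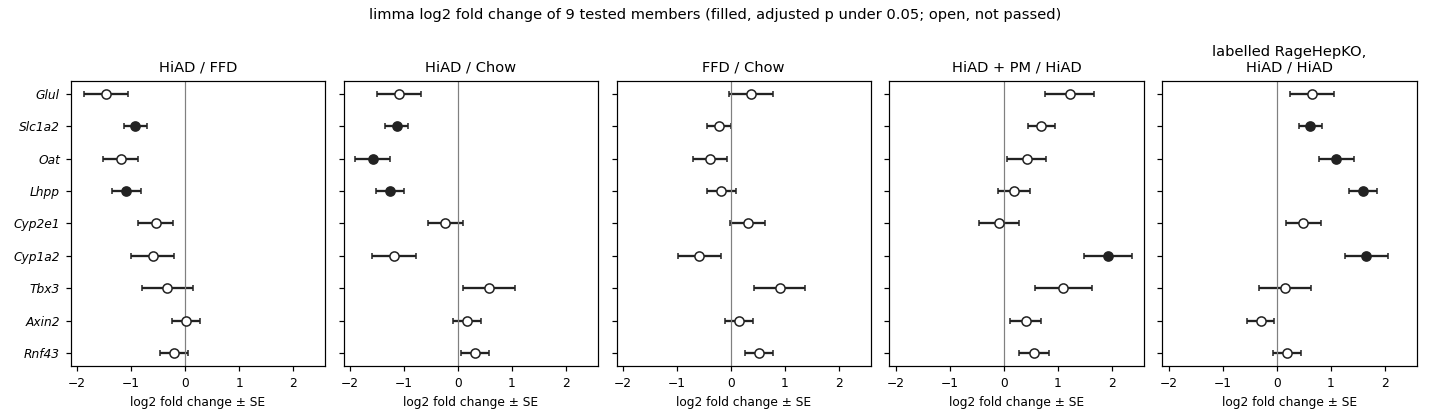
limma log2 fold change ± SE (x axis) of the 9 tested genes (rows) in the 5 comparisons (panels), with filled points for an adjusted p under 0.05. The filled points on the negative side are Slc1a2 and Lhpp in HiAD against FFD and Slc1a2, Oat and Lhpp in HiAD against chow, and those on the positive side are Cyp1a2 with PM and Slc1a2, Oat, Lhpp and Cyp1a2 in the libraries labelled RageHepKO.

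Slc1a2 encodes the glutamate transporter GLT-1, which takes glutamate into the cells of the pericentral ring (chr2:102658659-102790784, plus strand, GRCm38). Its level was 1.792, 2.68 and 4.03 scaled FPKM in the libraries labelled RageHepKO and 2.65 and 3.21 with PM. It was 1.39, 1.787 and 1.13 on the HiAD, against 3.001, 4.14 and 3.64 on the FFD and 3.73, 5.19 and 4.12 on chow. Each HiAD library was below each library of the other 4 groups, and HiAD B2 and RA19 were nearly level. The mean on the HiAD was 0.399 times that on the FFD and 0.33 times that on chow. The log2 fold change was -0.92 ± 0.22 (SE) against FFD, with an adjusted p of 0.0392 by limma, and -1.14 ± 0.22 against chow, with an adjusted p of 0.0114. The call against FFD was kept without RA19, RA20 or RA21 or chow R2 or R3 and lost without any of the other 9 libraries, at adjusted p of up to 0.176 by limma. It was also lost without a filter on low values, at 0.0919. That against chow was lost without HiAD B3 only, at 0.0603 by limma. Between the libraries labelled RageHepKO and HiAD the log2 fold change was 0.62 ± 0.22, with a limma adjusted p of 0.0429 that was kept without RA19 or chow R2 and lost without any of the other 12 libraries, at up to 0.153. With PM it was 0.70 at an adjusted p of 0.122 by limma.

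Glul encodes glutamine synthetase, which fixes ammonia as glutamine and is confined to a narrow ring of hepatocytes around the central vein (chr1:153899944-153909723, plus strand). It was at 92.3, 201 and 279 scaled FPKM in the libraries labelled RageHepKO and at 253 and 264 with PM. It was at 84.6, 173 and 91.4 on the HiAD, 225, 319 and 392 on the FFD and 297, 163 and 268 on chow. All HiAD libraries were below all FFD and PM libraries, whereas B2 overlapped with chow R2. The log2 fold change in HiAD against FFD was -1.46 ± 0.41 and missed the threshold at an adjusted p of 0.0794 by limma. It passed at 0.0305 without RA19 and at 0.0167 with sample quality weights. In these fits 523 and 1141 genes passed in this comparison, against 376 with neither change. The values against chow were -1.09 with an adjusted p of 0.157 by limma, and with PM against HiAD 1.22 with 0.149. For the libraries labelled RageHepKO the difference was 0.65 at an adjusted p of 0.24 by limma, and without RA19, the library with the highest mitochondrial share, it was 1.10 at 0.0416.

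Oat encodes ornithine aminotransferase, which turns ornithine towards glutamate, the substrate of glutamine synthetase (chr7:132557478-132576398, minus strand). It was at 344, 576 and 487 scaled FPKM in the libraries labelled RageHepKO and at 277 and 295 with PM. It was at 158, 381 and 161 on the HiAD, 420, 526 and 529 on the FFD and 710, 647 and 572 on chow. HiAD B2 stood above the other HiAD libraries and above both PM libraries, and still below every FFD and chow library. The log2 fold change against chow was -1.58 ± 0.32 with a limma adjusted p of 0.015, lost without chow R1, HiAD B1 or HiAD B3 at up to 0.0825 and in the compared groups alone at 0.0997. Against FFD it was -1.19 ± 0.32 with an adjusted p of 0.0699 by limma. In the libraries labelled RageHepKO it was 1.10 ± 0.32 with a limma adjusted p of 0.0207 although RA19 was below HiAD B2, and the call was lost without HiAD B1, HiAD B3, RA20 or RA21 at up to 0.0835.

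Lhpp encodes a phosphatase of phosphohistidine, phospholysine and inorganic pyrophosphate (chr7:132610638-132706420, plus strand). Between it and Oat lie 34239 bases with 1 protein-coding gene. Its level was 21.2, 16.8 and 17.0 scaled FPKM in the libraries labelled RageHepKO, above all other libraries, and 5.69 and 6.85 with PM, within the HiAD range. It was 5.54, 8.45 and 3.15 on the HiAD, 9.94, 12.1 and 16.1 on the FFD and 14.7, 13.4 and 14.5 on chow. Each HiAD library was below each FFD and chow library. Lhpp fell by 1.26 ± 0.26 on the log2 scale in HiAD against chow (limma adjusted p = 0.017) and by 1.08 ± 0.26 against FFD (limma adjusted p = 0.0436). The call against chow was lost without chow R1 or R3 or HiAD B1 or B3, at up to 0.0645, and that against FFD was kept only without chow R2, HiAD B2 or RA19 and reached 0.172 by limma. In the compared groups alone they were lost at 0.093 against chow and 0.0997 against FFD. It rose in the libraries labelled RageHepKO by 1.60 ± 0.26 (limma adjusted p = 0.00128), to 3.21 times the HiAD mean, and stayed at 0.00508 or below whichever library was left out. With PM the difference was 0.19 at an adjusted p of 0.794 by limma.

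Cyp1a2 encodes a cytochrome P450 of drug and caffeine metabolism that also responds to the aryl hydrocarbon receptor (chr9:57676937-57683703, minus strand). It was at 264, 233 and 246 scaled FPKM in the libraries labelled RageHepKO and at 307 and 291 with PM. It was at 104, 96.9 and 46.4 on the HiAD, 151, 101.3 and 109 on the FFD and 212, 89.0 and 299 on chow. Chow overlapped with every other group, while all libraries with PM or labelled RageHepKO were above all HiAD and FFD libraries. Cyp1a2 rose by 1.93 ± 0.45 on the log2 scale with PM (limma adjusted p = 0.024) and by 1.66 ± 0.40 in the libraries labelled RageHepKO (limma adjusted p = 0.00846), to 3.62 and 3.001 times the HiAD mean. The call with PM was lost without HiAD B3 or either PM library, R18 or R19, at up to 0.17, and the call in the libraries labelled RageHepKO held without any 1 library, at up to 0.0394. The differences of HiAD from FFD, -0.60, and from chow, -1.19, missed the threshold at limma adjusted p of 0.502 and 0.117.

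Among 4 tested of 7 other targets of the aryl hydrocarbon receptor, none rose and 1 fell with PM, and none rose and 3 fell in the libraries labelled RageHepKO. Nqo1, a quinone reductase that also belongs to the NRF2 targets, fell by 2.05 with PM and by 1.19 in the libraries labelled RageHepKO (limma adjusted p = 0.000627 and 0.0027), and rose by 1.59 in HiAD against FFD (limma adjusted p = 0.00266). Cyp1a1, the close relative of Cyp1a2 and a classical target, was at 0 to 0.412 scaled FPKM in all groups and was not tested. The medians of the 4 were -0.86 with PM, -0.89 in the libraries labelled RageHepKO and 0.77 in HiAD against FFD.

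Cyp2e1 encodes the ethanol-oxidising cytochrome P450 and was the most abundant member per length (chr7:140763739-140774987, plus strand). It was at 1922, 4469 and 4413 scaled FPKM in the libraries labelled RageHepKO, where RA19 was the lowest and the other 2 the highest of all 14, and at 2310 and 2173 with PM. It was at 2387, 2468 and 2323 on the HiAD, 4092, 2880 and 3601 on the FFD and 3441, 2203 and 2939 on chow. The difference of HiAD from FFD was -0.54 with an adjusted p of 0.451 by limma. That of the libraries labelled RageHepKO from HiAD was 0.49 with an adjusted p of 0.267 by limma, and without RA19 it was 0.89 with 0.0227.

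Tbx3 encodes a T-box repressor whose liver expression is pericentral (chr5:119670669-119684724, plus strand). It was at 22.8 and 18.7 scaled FPKM with PM, above each of the other 12 libraries. It was at 12.96, 8.25 and 9.92 in the libraries labelled RageHepKO, 5.04, 10.9 and 13.4 on the HiAD, 10.4, 9.88 and 15.6 on the FFD and 11.4, 1.75 and 8.12 on chow. The log2 fold change with PM against HiAD was 1.10 at an adjusted p of 0.273 by limma, and with sample quality weights 1.16 at 0.0188. With those weights 3110 genes passed in this comparison, against 781 without them. The libraries of the other 4 groups overlapped with each other.

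The feedback genes were at low levels. Axin2 encodes a scaffold of the complex that degrades β-catenin (chr11:108920349-108950783, plus strand) and was at 1.08, 0.71 and 1.23 scaled FPKM in the libraries labelled RageHepKO and 2.23 and 2.27 with PM. It was at 2.37, 1.67 and 0.641 on the HiAD, 1.49, 1.09 and 1.76 on the FFD and 1.65, 0.705 and 1.32 on chow, so that the HiAD range covered every other library. Rnf43 encodes a ubiquitin ligase that removes Wnt receptors from the cell surface (chr11:87662722-87735539, plus strand). It was at 1.61 and 2.26 scaled FPKM with PM, 1.86, 0.922 and 1.09 in the libraries labelled RageHepKO, 0.394, 0.981 and 1.81 on the HiAD, 1.31, 1.18 and 1.36 on the FFD and 0.92, 0.273 and 0.637 on chow. Its difference of FFD from chow was 0.52 at an adjusted p of 0.514 by limma, with all FFD libraries above all chow libraries. Lgr5 encodes an R-spondin receptor (chr10:115450311-115587780, minus strand) and ranged from 0.0847 scaled FPKM in HiAD B1 to 1.15 in chow R2. Its means were 0.355 in the libraries labelled RageHepKO, 0.463 with PM, 0.428 on the HiAD, 0.567 on the FFD and 0.731 on chow, and the libraries labelled RageHepKO were all below the chow libraries, with which the other groups overlapped.

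The members were also set against each other across the 14 libraries. Of 36 pairs of tested members, Pearson's r of log2(scaled FPKM + 1) ranged from -0.31 for Oat and Rnf43 to 0.87 for Tbx3 and Rnf43, with a median of 0.30. Slc1a2 and Oat gave 0.83, the neighbours Oat and Lhpp 0.82, and Glul and Slc1a2 0.78. These values describe 14 libraries that fall into shared groups and differ in mitochondrial share, at unknown depth. After each group's mean was taken off, the 4 pairs gave 0.77 for Tbx3 and Rnf43, 0.55 for Slc1a2 and Oat, 0.57 for Oat and Lhpp and 0.61 for Glul and Slc1a2.

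**Figure D3:**
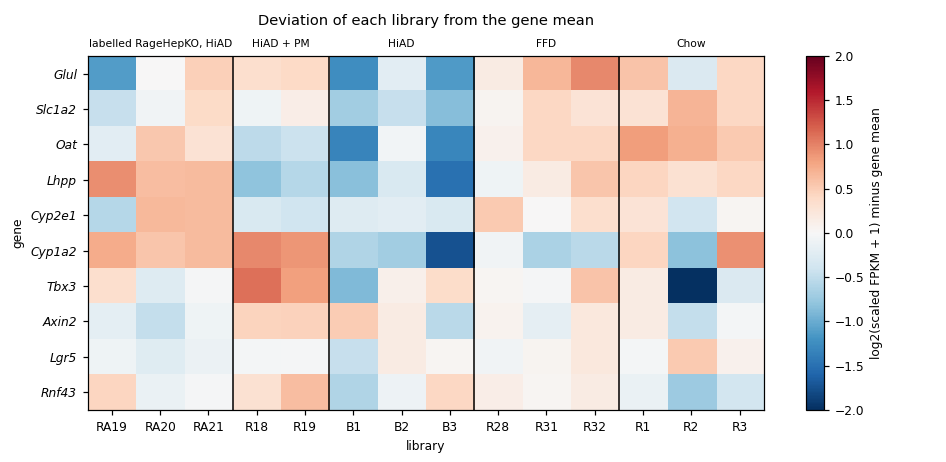
Deviation of log2(scaled FPKM + 1) from the gene's mean over 14 libraries (colour, from -2 to 2) for the 10 genes (rows) in each library (columns, grouped). Oat was lowest in HiAD B1 and B3 at 158 and 161 scaled FPKM, while B2 was at 381, and Tbx3 was lowest in chow R2 at 1.75.

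Outside the members, the genes whose levels ran closest to each by Pearson's r over the 14 libraries were Hopx and the pseudogenes Cyp2d41-ps and Mup-ps19 for Glul (0.92, 0.92 and 0.91), and Cadm4, Gm15638 and Serpina1e for Slc1a2 (0.91, 0.90 and 0.90). For Oat they were Hist1h2bc, Dtwd1 and Zap70 (0.89, 0.87 and 0.87), and for Lhpp Mrpl53, Hsbp1 and Gm42688 (0.95, 0.94 and 0.93). For Cyp2e1 they were Mrpl28, Bri3 and Lbhd1 (0.95, 0.92 and 0.92), and for Cyp1a2 Serpina4-ps1, Bhlhe41 and Slc38a3 (0.93, 0.92 and 0.92). Slc38a3 encodes a glutamine transporter and Bhlhe41 a repressor of the circadian clock. For Tbx3 they were Fam149a, Nsmf and Arhgap29 (0.91, 0.88 and 0.88), for Axin2 Aldh2, Sumo2 and Gm4617 (0.85, 0.83 and 0.82), and for Rnf43 Lrrk1, Arhgap29 and Umps (0.85, 0.85 and 0.84). These values include differences between the groups. After each group's mean was taken off, they ranged from 0.58 for Oat and Zap70 to 0.94 for Axin2 and Sumo2.

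The other genes of the Wnt pathway were read beside the members. Of 16 ligands and R-spondins 3 were tested. Wnt4 rose by 1.10 in HiAD against chow (limma adjusted p = 0.00707) and fell by 1.07 with PM against HiAD (limma adjusted p = 0.0115). Wnt2, one of the central vein ligands, was at 1.73 to 2.39 scaled FPKM on the HiAD and 0.774 to 1.204 on the FFD, a difference of 0.62 at a limma adjusted p of 0.0698. On chow it was at 1.31 to 2.20 scaled FPKM, and the difference of HiAD from chow was 0.13 at a limma adjusted p of 0.732. Rspo3 was at 3.42 to 4.80 scaled FPKM on the HiAD, 2.62 to 2.98 on the FFD and 2.16 to 3.40 on chow, and passed in no comparison. Wnt9b was at 0.363 to 1.23 scaled FPKM on the HiAD and 0.181 to 0.523 on the FFD and was not tested.

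Of 12 further Wnt feedback and target genes 9 were tested, and 2 rose in HiAD against FFD and none fell. Ccnd1, which encodes cyclin D1, rose by 1.79 and Dkk3, of the Dickkopf family, by 1.32 (limma adjusted p = 0.00332 and 0.0102). Ccnd1 was at 16.7 to 24.7 scaled FPKM on the HiAD, 4.41 to 6.56 on the FFD and 2.64 to 4.91 on chow. Against chow, Ccnd1 and Tnfrsf19 rose by 2.22 and 1.37 (limma adjusted p = 0.000626 and 0.00783). With PM Dkk3 fell by 1.46 (limma adjusted p = 0.00689). In the libraries labelled RageHepKO 5 of the 9 fell, among which Ccnd1 fell by 1.53, Dkk3 fell by 0.98 and Myc fell by 1.504, and Sp5, a transcription factor induced by Wnt, rose by 1.60 (limma adjusted p = 0.00177, 0.00845, 0.0104 and 0.025). The medians of this list were 0.35 in HiAD against FFD and -0.84 in the libraries labelled RageHepKO, where those of the members were -0.60 and 0.62. Within the list, Sp5, Notum and Cd44 went against these medians and the other tested genes with them. The values of Sp5, Notum and Cd44 were -0.88, -0.43 and -0.87 in HiAD against FFD, where none of them passed. In the libraries labelled RageHepKO they were 1.60, 0.67 and 0.44, and only Sp5 passed.

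Of 16 Wnt receptors 9 were tested. Fzd1 and Fzd4 rose in HiAD against chow, by 1.25 and 1.15 (limma adjusted p = 0.00887 and 0.0437), and 4 receptors fell in the libraries labelled RageHepKO, led by Fzd1 and Lrp6, by 1.85 and 1.15 (limma adjusted p = 0.000352 and 0.00213). Of 14 tested genes of the β-catenin core and its destruction complex none passed by limma in the comparisons of diets or with PM, while an unadjusted p under 0.05 was found for 2 in HiAD against FFD, 3 in HiAD against chow, 1 in FFD against chow and 3 with PM. Under the label RageHepKO 2 rose and 3 fell, and Ctnnb1, which encodes β-catenin, fell by 0.67 (limma adjusted p = 0.0176), at 56.4 to 77.9 scaled FPKM against 97.3 to 110 on the HiAD.

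**Figure D4:**
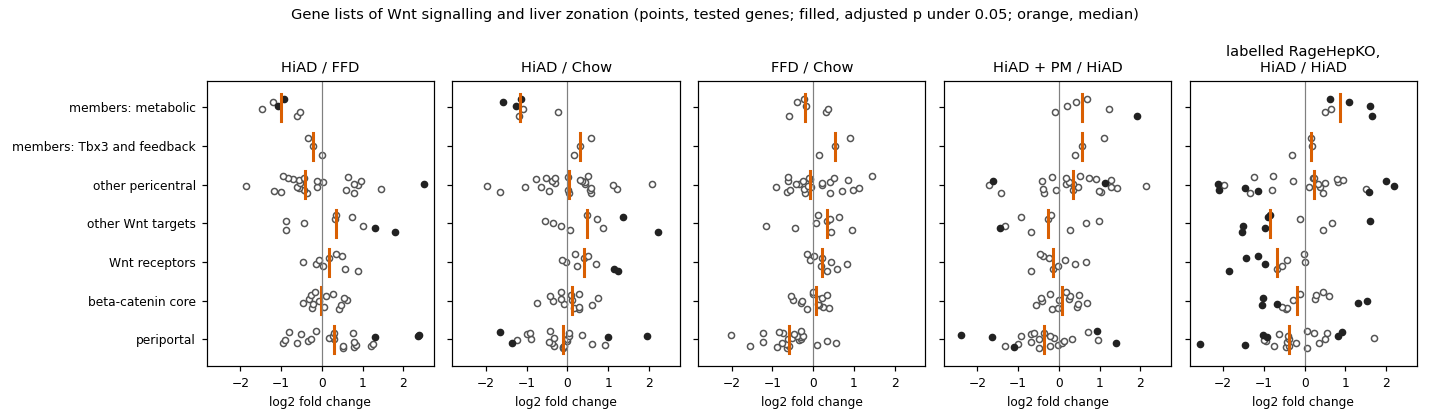
log2 fold change (x axis) of tested genes in 7 lists (rows) and 5 comparisons (panels), with points for genes, filled at a limma adjusted p under 0.05, and orange bars for the median of the list. The metabolic members have medians of -1.0015 in HiAD against FFD and 0.87 in the libraries labelled RageHepKO, and the 24 other pericentral genes have medians of -0.40 and 0.22. In HiAD against chow the medians of these 2 lists are -1.16 and 0.03, and with PM 0.56 and 0.34.

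All 24 other pericentral genes on the list were tested. In HiAD against FFD, 1 rose and none fell by limma, with 8 at an unadjusted p under 0.05 and a median of -0.40. Against chow none passed by limma, with 5 at an unadjusted p under 0.05 and a median of 0.03. Gstm3, a glutathione transferase, rose by 2.50 against FFD (limma adjusted p = 0.0384), at 15.6 to 23.0 scaled FPKM on the HiAD and 1.85 to 3.32 on the FFD. The ammonium transporter gene Rhbg was at 0.0965 to 0.915 scaled FPKM on the HiAD and 0.866 to 1.73 on the FFD. Its difference was -0.70 at a limma adjusted p of 0.262. Cyp2c54, at -1.86, and Por, at 0.96, did not pass either, at lower limma adjusted p of 0.109 and 0.16. With PM, Gulo, of vitamin C synthesis, rose by 1.14 and Por, the electron donor of the cytochromes P450, fell by 1.62 (limma adjusted p = 0.0133 and 0.0226). Under the label RageHepKO 3 rose and 4 fell, led by a fall of the tight junction gene Cldn2 by 2.10 and a rise of Cyp2c54 by 2.20 (limma adjusted p = 0.00361 and 0.0113).

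Of 23 tested periportal genes 3 rose and none fell in HiAD against FFD, with a median of 0.30. They were Mfsd2a, a lipid transporter gene, by 2.38, Hsd17b13, of the lipid droplet, by 1.30, and Hsd17b6 by 2.35 (limma adjusted p = 0.00376, 0.00866 and 0.0167). Against chow 2 rose and 2 fell, with a median of -0.10, and with PM 2 rose and 3 fell, with a median of -0.37. Under the label RageHepKO 2 rose and 4 fell, among them Cps1, the entry enzyme of the urea cycle, by 2.57 (limma adjusted p = 0.00459).

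Markers of other liver cells moved with the same comparisons. Of 8 Kupffer cell and macrophage markers 3 fell in HiAD against FFD, among which Timd4 fell by 2.56 and Clec4f fell by 2.20 (limma adjusted p = 0.00448 and 0.0103). In HiAD against chow none of the 8 passed by limma, with 2 at an unadjusted p under 0.05 and a median of -0.40. The median in FFD against chow was 0.90. With PM 2 rose, and 4 rose in the libraries labelled RageHepKO. The summed level of the list was 115 to 282 scaled FPKM in the libraries labelled RageHepKO, 152 to 184 with PM, 52.8 to 66.7 on the HiAD, 135 to 567 on the FFD and 69.7 to 151 on chow. Cholangiocyte markers summed to 90.9 to 146 scaled FPKM on the HiAD and to 36.2 or less in every library of the other groups. Of their 3 tested genes 2 rose in HiAD against FFD, and Spp1 rose by 2.06 and Epcam by 1.44 (limma adjusted p = 0.00194 and 0.012). With PM 2 of the 3 fell, and under the label RageHepKO all 3 fell. Of the 7 cholangiocyte markers Cftr was at 0 in the libraries labelled RageHepKO. Stellate cell markers summed to 42.5 to 55.0 scaled FPKM on the HiAD, 26.3 to 28.7 on the FFD and 17.0 to 30.3 on chow. The sums were 23.1 to 25.5 with PM and 28.7 to 38.45 in the libraries labelled RageHepKO. Of their 7 tested genes 1 rose in HiAD against FFD and none fell, with a median of 0.35. It was Dcn, which rose by 1.17 (limma adjusted p = 0.0181). Against chow 2 of the 7 rose, with PM 1 fell, and under the label RageHepKO 2 fell. Of 8 tested endothelial markers 1 rose and none fell in HiAD against FFD, with a median of 0.17. It was Thbd, which rose by 1.90 (limma adjusted p = 0.00272), while Clec4g was at -0.44, Cdh5 at -0.23 and Stab2 at -0.07 without passing. Against chow Thbd rose by 1.53 and Clec4g fell by 0.96 (limma adjusted p = 0.00782 and 0.0421). With PM 2 of the 8 fell, and under the label RageHepKO 2 rose and 1 fell. Hepatocyte markers summed to 24660 to 27480 scaled FPKM on the HiAD and 16640 to 22570 on the FFD. They summed to 18520 to 20120 with PM and to 23690 to 32790 on chow, which covers the HiAD range. In HiAD against FFD none of 7 passed by limma, with 1 at an unadjusted p under 0.05. Against chow Serpina1a fell by 1.15 (limma adjusted p = 0.0297), and with PM none passed by limma, again with 1 at an unadjusted p under 0.05. Under the label RageHepKO 5 of the 7 passed. Hnf4a fell by 1.30, Apob fell by 1.201 and Alb fell by 1.01, while Ttr rose by 1.38 and Serpina1a by 0.92 (limma adjusted p = 0.00204, 0.00412, 0.0303, 0.00827 and 0.0202). Their sum was 26040 to 37440 scaled FPKM in those libraries. The part of these cells in the levels of the members was not tested.

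In the libraries labelled RageHepKO, short genes had higher and long genes lower fold changes against HiAD. The median log2 fold change was 0.27 in the quintile of genes with the shortest total exon length and -0.24 in that with the longest. In HiAD against FFD and against chow the trend ran the other way. There the medians went from -0.07 to 0.16 and from -0.19 to 0.12. Lhpp, Oat, Cyp1a2 and Cyp2e1 belonged to quintile 2, and Slc1a2, Tbx3 and Rnf43 to quintile 5. The median of quintile 2 was 0.14 in the libraries labelled RageHepKO, -0.08 in HiAD against FFD and -0.09 in HiAD against chow. Each library was also freed of its trends with exon length and GC content, an alternative chosen after seeing the data. The changes in the libraries labelled RageHepKO were then 1.41 for Lhpp, 1.44 for Cyp1a2, 1.07 for Oat and 0.96 for Slc1a2 (limma adjusted p = 0.00194, 0.0109, 0.0194 and 0.0132). In the fit without RA19, in which these trends were not removed, they were 1.49, 1.61, 1.31 and 0.83 (limma adjusted p = 0.00446, 0.0231, 0.0155 and 0.0119). With the trends removed, Slc1a2, Oat and Lhpp still passed in HiAD against chow (limma adjusted p = 0.011, 0.0141 and 0.0204). Against FFD Slc1a2 passed at 0.0294 by limma, and Lhpp did not, at 0.0531.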

How the data were processed

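Liver RNA was sequenced from 14 mice in 5 groups. The table deposited by the authors is called raw counts, yet it was treated as FPKM. This unit was inferred, since the values are not whole numbers. The authors mapped reads to GRCm38 with GENCODE annotations and Dropseq tools and fitted limma with voom and sample weights. No source used here says how FPKM were made. Since no counts are held, depth is unknown and precision rests on the spread between libraries.

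Removal of 27 date-like names and 129 repeats with identical values took the 55583 entries to 55427 genes. Libraries were scaled by a mean of log ratios over 6522 genes, with 30% trimmed at each end. Genes that reached a scaled FPKM of 1 in 2 or more libraries were tested on log2(scaled FPKM + 1) in 1 limma fit of 5 groups with trend and robust spread and Benjamini-Hochberg adjustment over 12095 genes. A call is an adjusted p under 0.05. The limma step was tested on simulated data with known changes.

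The members and lists were chosen with earlier results of these data known. Named were all members, Ager, up to 4 genes of each other list by smallest p among its calls (up to 2 as values where none passed) and the 3 genes most like each member. Rspo3, Wnt9b, Cyp1a1, Rhbg, Ctnnb1, Sp5, Notum and Cd44 were named outside that rule, after their values were seen. The cell markers Cftr, Cdh5, Clec4g, Stab2 and Alb were likewise named outside it, after their values were seen. So were Cyp2c54 and Por in HiAD against FFD. Same-numbered HiAD and chow libraries were not paired, since no source ties them. Alternatives were other scalings, pseudocounts of 0.1 and 0.5, other filters, sample quality weights, fits of fewer groups, plain moderation, a replicate block, leaving out each library and, chosen after seeing the data, removal of exon length and GC trends, for which 99.4% of tested genes had values. Positions came from GENCODE and windows from RefSeq. The fits used limma 3.58.1 in R 4.3.3. Tables and figures were made with pandas 2.3.3, matplotlib 3.10.9 and numpy 2.4.6 in Python 3.11.15.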

Additional observations from a re-analysis of the deposited data

How the results depend on the processing

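No called member changed sign in any alternative, and of 259 such values 68 lost the call. Members passing in HiAD against FFD (2, with 376 of 12095 genes in all) numbered 1 with sums outside mitochondrial genes set equal, in the compared groups alone and with length and GC trends removed. In these settings 458, 595 and 379 genes passed in all. They numbered 0 without a filter, where 257 of 27549 genes passed, and 4 at an adjusted p under 0.1. In HiAD against chow (3, with 566 genes in all) they numbered 5 with sample quality weights, where 2385 genes passed in all. They numbered 1 in the compared groups alone, where 209 genes passed, and 0 with a replicate block, where 63 genes passed. Deviations of same-numbered libraries correlated at 0.04, -0.09 and -0.05. With PM (1, with 781 genes in all) members passing numbered 0 without a filter, 5 with sample quality weights and 2 in a fit without the libraries labelled RageHepKO. In these settings 583, 3110 and 1052 genes passed in all. In those libraries (4, with 4042 genes in all) they numbered 2 as deposited, with mitochondrial genes left out of the sums, without a filter and in the compared groups alone. In these settings 4323, 4664, 3269 and 2575 genes passed in all. Leaving out 1 library gave 0 to 3, 0 to 4, 0 to 1 and 2 to 6, and 0 to 0 in FFD against chow.

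Only uncalled differences reversed. Without scaling these were Axin2 in HiAD against FFD (-0.0308), Lhpp in FFD against chow (0.0192) and Tbx3 in the libraries labelled RageHepKO (-0.179), and with mitochondrial genes left out of the sums Rnf43 (-0.0283) and Tbx3 (-0.233) there. Axin2 in HiAD against FFD was -0.037 and -0.0007 at pseudocounts of 0.1 and 0.5 and -0.0051 with trends removed. With sample quality weights Tbx3 was -0.184 in HiAD against chow, Axin2 -0.05 in FFD against chow and Lhpp -0.0385 with PM. Leaving out 1 library reversed 13 of 630 values. In HiAD against FFD the ranges were -0.587 to 0.0378 for Tbx3, -0.213 to 0.306 for Axin2 and -0.457 to 0.0494 for Rnf43, and in HiAD against chow -0.0772 to 1.011 for Tbx3 and -0.0635 to 0.455 for Axin2. Axin2 ranged from -0.0303 to 0.288 in FFD against chow and Lhpp from -0.117 to 0.476 with PM. In the libraries labelled RageHepKO Tbx3 ranged from -0.219 to 0.406 and Rnf43 from -0.0641 to 0.443. Over all genes, calls ranged from 257 without a filter to 1141 with sample quality weights in HiAD against FFD (376), 63 to 2385 in HiAD against chow (566), 2 to 540 in FFD against chow (8), 583 to 3110 with PM (781) and 2575 to 4664 in the libraries labelled RageHepKO (4042). Without HiAD B3 they were 143, 208 and 2789 in HiAD against FFD, HiAD against chow and the libraries labelled RageHepKO, and without PM R19 137 with PM. In HiAD against chow the split of 343 higher and 223 lower was 519 and 177 without scaling and 819 and 181 with mitochondrial genes left out of the sums. The cause of these changes was not tested. Depth is unknown and limits Lgr5, Axin2 and Rnf43 most by their low level.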
